A study of Homo sapiens with 4 samples.

Results

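The chromosome 19 placental miRNA cluster was followed through 48 assays of a human miRNA qPCR panel set. An assay was a member when its printed name was miR-498, miR-512, or any of miR-515 to miR-527 with any letter, arm or star. Of 737 miRNA assays in 740 wells, 48 were members, 22 printed on panel I of the 2 plates and 26 on panel II. miR-1283 and miR-1323, which belong to the same cluster, were not among the assays. No measured value was used to choose the members.

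The study asked whether the RNA helicase DDX1 takes part in the processing of primary miRNAs. All 4 samples came from U2OS, an established human osteosarcoma cell line. The shNS sample carried a control shRNA delivered by lentivirus, and the shDDX1 sample carried an shRNA against DDX1 delivered in the same way, both under selection with puromycin at 2 µg/ml. The untreated sample received no drug. The NCS sample received neocarzinostatin, a radiomimetic agent that breaks DNA, at 500 ng/ml for 6 h. Each group was 1 sample, so no difference had a replicate check, no test between groups was possible and no p-value is given. The panels measure miRNAs and a few small RNAs, so neither the identity of the cells nor the depletion of DDX1 was checked here. No placental sample was among those used.

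The cluster is found in primates only and is imprinted, with expression from the paternal allele. It is best known in the placenta, where trophoblasts make large amounts of its miRNAs and release them into the maternal blood. Its hairpins arose by repeated duplication within Alu-rich sequence, so many of its mature miRNAs differ by a base or a shifted end, and several 3p arms share the AAGUGC core with the miR-302, miR-372 and miR-17 families of pluripotent and proliferating cells.

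Mature sequences in RefSeq (GRCh38.p14) were found for 45 of the 48 members, all on the plus strand of chromosome 19, chr19:53666692-53762418, a span of 95.7 kb. They came from 40 hairpin genes, and 11 of the members could come from more than 1 gene. miR-518f, miR-522 and miR-527 are named only. The 45 members had 44 different sequences and 25 different seeds, the seed being bases 2 to 8, which carry most of the base pairing with a target. A seed was shared by 3 or more members in 5 cases, by 2 members in 7 cases, and held by 1 member in 13 cases. The sequences below are RefSeq's, printed 5′ to 3′ with the seed in capitals. The first set holds 3p arms with the AAGUGC core, shown because their ratios and levels are compared as a group, with the core starting at base 2 in the first 5, at base 3 in miR-526b*, at base 4 in miR-520g and at base 1 in miR-512-3p.
miR-520c-3p: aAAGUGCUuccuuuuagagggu
miR-520b: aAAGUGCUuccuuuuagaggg
miR-520d-3p: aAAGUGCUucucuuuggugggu
miR-519a: aAAGUGCAuccuuuuagagugu
miR-519c-3p: aAAGUGCAucuuuuuagaggau
miR-526b*: gAAAGUGCuuccuuuuagaggc
miR-520g: aCAAAGUGcuucccuuuagagugu
miR-512-3p: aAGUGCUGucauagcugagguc

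The next set holds 3p arms without that core. The miR-517 assays are shown because miR-517a and miR-517b have the same sequence but sit on different panels, and the others because they had some of the widest ratios in either comparison.
miR-517a: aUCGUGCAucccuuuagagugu
miR-517b: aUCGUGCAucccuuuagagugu
miR-517c: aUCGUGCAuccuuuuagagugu
miR-518a-3p: gAAAGCGCuucccuuugcugga
miR-518c: cAAAGCGCuucucuuuagagugu
miR-518e: aAAGCGCUucccuucagagug
miR-524-3p: gAAGGCGCuucccuuuggagu
miR-525-3p: gAAGGCGCuucccuuuagagcg
miR-515-3p: gAGUGCCUucuuuuggagcguu

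The last set holds 5p arms, shown for the hairpins whose arms are compared.
miR-515-5p: uUCUCCAAaagaaagcacuuucug
miR-516b: aUCUGGAGguaagaagcacuuu
miR-518c*: uCUCUGGAgggaagcacuuucug
miR-520d-5p: cUACAAAGggaagcccuuuc
miR-524-5p: cUACAAAGggaagcacuuucuc
miR-525-5p: cUCCAGAGggaugcacuuucu

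The arms differed in sequence as a class. AAGUGC lay within bases 1 to 10 of 15 of the 29 sequenced 3p members and of 0 of the 16 sequenced 5p members, against 1.32% of the 2351 different human mature sequences in RefSeq. GCACUUU or GCGCUUU, searched on the mature strand over its whole length, was in 12 of the 16 5p members and in 0 of the 3p members, against 0.978% of all mature sequences. The seed AAGUGCU was that of miR-520a-3p, miR-520b, miR-520c-3p, miR-520d-3p and miR-520e. AAGUGCA was that of miR-519a, miR-519b-3p and miR-519c-3p, AAAGCGC that of miR-518a-3p, miR-518b, miR-518c and miR-518d-3p, UCGUGCA that of miR-517a, miR-517b and miR-517c, and UCUAGAG that of miR-518f*, miR-519c-5p and miR-526a.

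The level of each miRNA was read as Ct, the quantification cycle, in which 1 cycle earlier corresponds to about 2-fold more template. A well was called quantified when its Ct was under 35. All 48 members were quantified in shNS, all 48 in shDDX1, 37 (77.1%) in the untreated sample and 42 (87.5%) in the NCS sample. Among the other miRNA wells the shares were 98.8%, 97.5%, 69.9% and 79.3% in the same order. Cluster members were therefore quantified about as often as, or more often than, the rest of the panels in each sample. The median Ct of the members was 27.9 in shNS, 28.4 in shDDX1, 32.3 in the untreated sample and 32.2 in the NCS sample. The mean Ct of the miRNA wells under 35 in all samples, used to centre each sample, was 25.8, 26.1, 30.1 and 29.4, so the untreated and NCS plates were read later throughout. The knockdown pair and the NCS pair were compared only within each pair.

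The panels placed the members differently. On panel I their median Ct was 27.6 in shNS against 25.9 for the other wells of that panel, and 33.0 against 32.2 in the untreated sample. On panel II it was 28.7 against 28.7 in shNS and 31.8 against 32.6 in the untreated sample. Panel I members were thus read later than the other panel I wells at the median in these samples, and panel II members at about the same cycle or earlier.

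**Figure D1:**
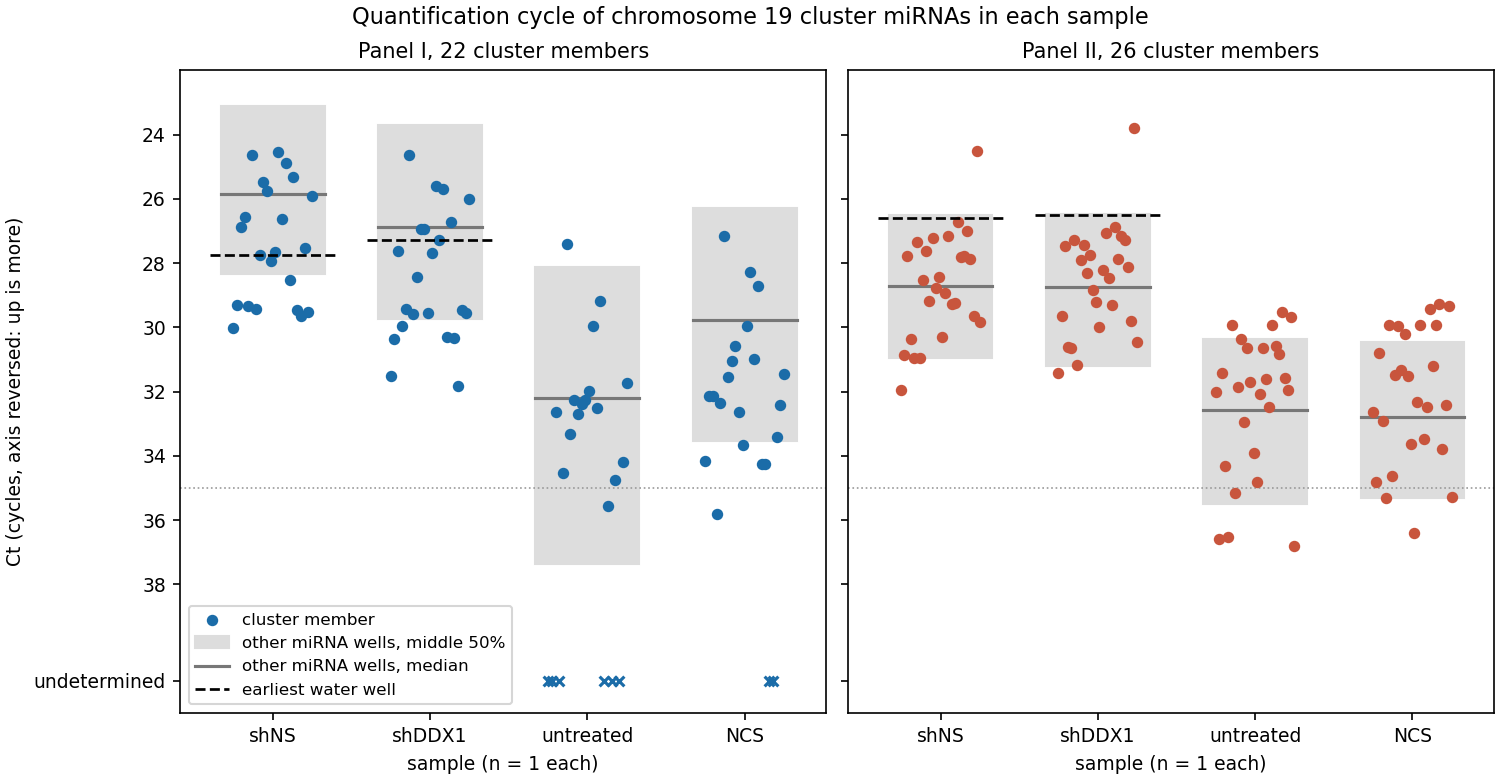
Quantification cycle of each cluster member (points) in the 4 samples, panel I on the left and panel II on the right, on a reversed axis in cycles. The grey box and line give the middle 50% and the median of the other miRNA wells, the dashed line marks the earliest water well where one had a Ct, and most members in shNS and shDDX1 lie below that line.

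Water wells, which hold no template, set a limit on how these cycles can be read in the lentiviral samples. Of the 9 water wells, 6 had a Ct in shNS and 7 in shDDX1, whereas 0 had a Ct in the untreated or the NCS sample. In shNS the earliest water well of panel I was at 27.8 and that of panel II at 26.6, and in shDDX1 they were at 27.3 and 26.5. Members read earlier than the earliest water well of their own panel numbered 14 of 48 (29.2%) in shNS and 8 of 48 (16.7%) in shDDX1, against 47.0% and 39.9% of the other miRNA wells. On panel I these were 13 (59.1%) and 7 (31.8%) of the 22 members, against 67.4% and 53.8% of the other wells of that panel. On panel II 1 of 26 members (3.85%) passed in each sample, against 25.7% and 25.4% of the other wells of that panel. The 1 member was miR-526b* both times. This limit rests on 1 well of each panel. On panel I the other water well had no Ct. On panel II the next earliest water well was at 34.6 in shNS and 34.8 in shDDX1. The other members of these 2 samples had cycles later than that 1 well, at which a well without template could also give signal. In the untreated and NCS samples no water well gave a Ct, and the members there had a Ct of 27.2 or later.

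The earliest members were nearly the same assays in every sample. miR-517c had a Ct of 24.6 in shNS, 24.6 in shDDX1, 27.4 in the untreated sample and 27.2 in the NCS sample, the earliest member in the last pair. miR-526b*, the 3p arm of miR-526b, was read at 24.5, 23.8, 29.7 and 29.3, the earliest member in the lentiviral pair. miR-519a was read at 24.6, 25.6, 29.9 and 28.3.
The first of these carries the UCGUGCA seed, and the others carry AAGUGC. miR-520c-3p, another AAGUGC miRNA, was read at 24.9, 25.7, 29.2 and 28.7. miR-521 was among the earliest 5 members in shNS, at 25.3, and was read at 26.7 in shDDX1, 35.6 in the untreated sample and 34.3 in the NCS sample. miR-526b was the fifth earliest in shDDX1, at 25.999, miR-522 was at 29.5 in the untreated sample and 29.3 in the NCS sample, and miR-520f was at 29.9 in the untreated sample.

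Cycles differed widely between assays of nearly the same sequence. miR-517a and miR-517c differ by 1 base and share panel I, yet miR-517a was read at 29.3, 29.4, 34.5 and 32.3 in the 4 samples, which was 4.69, 4.78, 7.12 and 5.17 cycles after miR-517c. miR-517b, whose RefSeq sequence is that of miR-517a, was read on panel II at 27.4, 27.3, 29.9 and 29.9. These cycles are properties of an assay as well as of its miRNA, and the primers, and the sequence version they were made for, are not given in the sources used here. Levels of different members were not ranked beyond their cycles for that reason.

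Not every member could be quantified in the NCS pair. In the untreated sample 6 members had no Ct at all, miR-498, miR-512-5p, miR-516b, miR-520d-5p, miR-523 and miR-524-5p, all on panel I. A further 5 had a Ct of 35 or later, miR-515-3p at 36.6, miR-517* at 36.5, miR-518d-3p at 35.2, miR-521 at 35.6 and miR-527 at 36.8. In the NCS sample miR-523 and miR-524-3p had no Ct, and miR-516b at 35.8, miR-517* at 35.3, miR-520a-3p at 36.4 and miR-527 at 35.3 were past the limit.
Of the 17 5p members, 10 were quantified in the untreated sample and 14 in the NCS sample, against 27 and 28 of the 31 3p members. All 15 AAGUGC members were quantified in the untreated sample, against 20 of the 30 sequenced members without the core. The panels divide these groups unevenly, since 12 of the 15 were on panel II, where 9 of the 12 members without the core were quantified, and 3 were on panel I, where 11 of the 18 without it were. No member went from a Ct under 32 in one sample of a pair to 35 or later, or to no Ct, in the other.

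Depletion of DDX1 was compared with the control shRNA over all 48 members. Ratios are differences of Ct on the log2 scale after each sample was centred on its mean Ct, and a member is counted as lower or higher when it differed by at least 2-fold. The cluster held 8 lower members (16.7%) and 5 higher members (10.4%), against 17.3% lower and 11% higher among all 716 miRNAs quantified in both samples. The median log2 ratio of the members was 0.15, against 0.04 for all miRNAs. Under this centring the cluster as a whole was thus spread much as the rest of the panels were. With each panel centred on its own mean, 43 of the 48 members were within 2-fold, against 548 of the 716 miRNAs.

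All 8 lower members were on panel I and all 5 higher members on panel II. On panel I, 8 of 22 members (36.4%) were lower and 0 higher, against 29% lower and 2.73% higher of all panel I miRNAs, and the median was -0.65 against -0.38 for the other wells. On panel II, 5 of 26 (19.2%) were higher and 0 lower, against 19.8% higher and 5.1% lower of all panel II miRNAs, with a median of 0.38 against 0.48. The panels thus differed in their medians, for the members as for the other miRNAs, but a panel did not fix the sign: 6 of the 22 panel I members lay above 0 and 3 of the 26 panel II members below it. The calibrator wells, which hold the same synthetic template on every plate, were read at 17.8 in shNS and 18.5 in shDDX1 on panel I, and at 16.7 and 16.4 on panel II, so they moved in the same direction as the members of each panel. With each plate set to its calibrators, 5 members (10.4%) were lower and 0 higher, against 16.6% and 6.28% of all miRNAs.

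**Figure D2:**
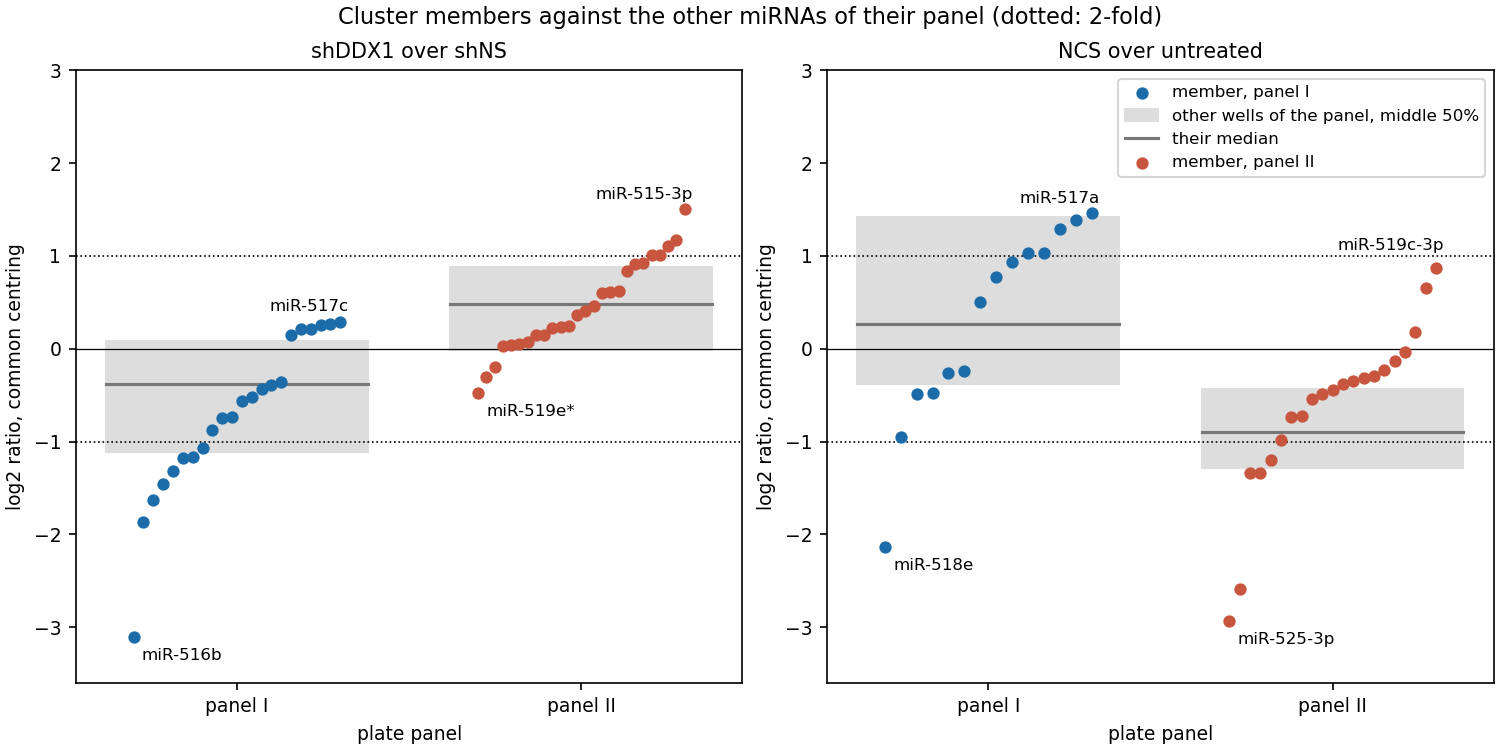
Log2 ratio of each quantified member (points) by panel, for shDDX1 over shNS and for NCS over untreated, beside the middle 50% (box) and the median (line) of the other miRNA wells of that panel. Dotted lines mark 2-fold, and the members of panel I and panel II sit on opposite sides of 0 at the median in both comparisons, as the other wells do.

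Among the lower members the widest difference was that of miR-516b, a 5p arm. It was read at 26.6 in shNS and 29.98 in shDDX1, a log2 ratio of -3.11, while its 3p partner miR-516b* on panel II was read at 30.4 and 30.6, a log2 ratio of 0.05. Both arms of miR-524 were lower, miR-524-5p at 27.5 in shNS and 29.5 in shDDX1 (log2 ratio -1.63) and miR-524-3p at 29.6 and 31.8 (log2 ratio -1.87).
These 2 arms share panel I and are cut from the same hairpin. miR-520d-5p, which has the UACAAAG seed of miR-524-5p, was read at 28.5 and 30.3, a log2 ratio of -1.46. miR-518e was read at 27.95 and 29.6 (log2 ratio -1.32), and the other lower members were miR-498 at -1.18, miR-518c at -1.17 and miR-521 at -1.07. Of the 8, miR-518c and miR-521 were the ones read earlier than every water well of their panel in both samples.

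The higher members lay closer to the threshold. miR-515-3p was read at 30.9 in shNS and 29.7 in shDDX1, a log2 ratio of 1.503. miR-519c-3p had a log2 ratio of 1.17, from 29.2 and 28.3, and miR-520d-3p one of 1.11, from 29.3 and 28.5. miR-526b* had a log2 ratio of 1.01 and was the only one of the 5 read before the water wells of its panel. miR-520a-5p was at 1.01 as well, from 28.9 and 28.2. Of these, miR-519c-3p, miR-520d-3p and miR-526b* carry the AAGUGC core. The other 35 members differed by less than 2-fold in either direction.

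The spread between wells of the same assay gives a rough scale for these values. For 7 assays printed on both panels, the log2 ratio of shDDX1 over shNS had an SD of 0.38 within an assay. That SD leaves out any difference between cultures. Because the wells of an assay sat on different panels, it includes any shift between the panels besides well error. The mean Ct used to centre panel I separately was 24.4 in shNS and 25.1 in shDDX1. For panel II it was 27.3 and 27.2. When each panel was centred on its own mean, 4 of the 8 lower members stayed at least 2-fold lower, miR-516b at -2.69, miR-524-3p at -1.45, miR-524-5p at -1.20 and miR-520d-5p at -1.04, and 1 of the 5 higher members stayed higher, miR-515-3p at 1.07, with a median of -0.12 over all members. Under that centring 8.33% of the members were lower and 2.08% higher, against 15.6% and 7.82% of all miRNAs.

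Position on the plate moved with the ratios too. Of the 13 members that lay in columns 7 to 18 of the panel I plate, 7 were at least 2-fold lower, against 1 of 9 nearer its edges, and among the other panel I wells the shares were 40.1% and 16.9%. When the median of the wells within 2 rows and 2 columns was subtracted from each ratio, 3 of the 8 lower members remained, miR-524-3p at -1.53, miR-516b at -1.23 and miR-524-5p at -1.11, and miR-521 came to 0.01. Of the 5 higher members miR-515-3p remained, at 1.05. In all, 4 members were lower and 1 higher after this step, against 12.8% and 7.96% of all miRNAs. The middle and outer columns were defined with the data in view.

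In chromosomal order lower and higher members were mixed, in unequal numbers. Counted from the start of the MIR512-1 hairpin, the first 30.03 kb held 4 of the 5 higher members and 1 of the 8 lower ones, and the next stretch, up to 60.1 kb, held 1 higher and 6 lower. The rest of the cluster held 1 lower and 0 higher. miR-520d-5p, lower, and miR-520d-3p, higher, come from the same hairpin. The assays were divided in the same way, with 13 of the 16 members of the first stretch on panel II and 13 of the 21 of the next on panel I. Chromosomal position and panel cannot be told apart in these counts.

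**Figure D3:**
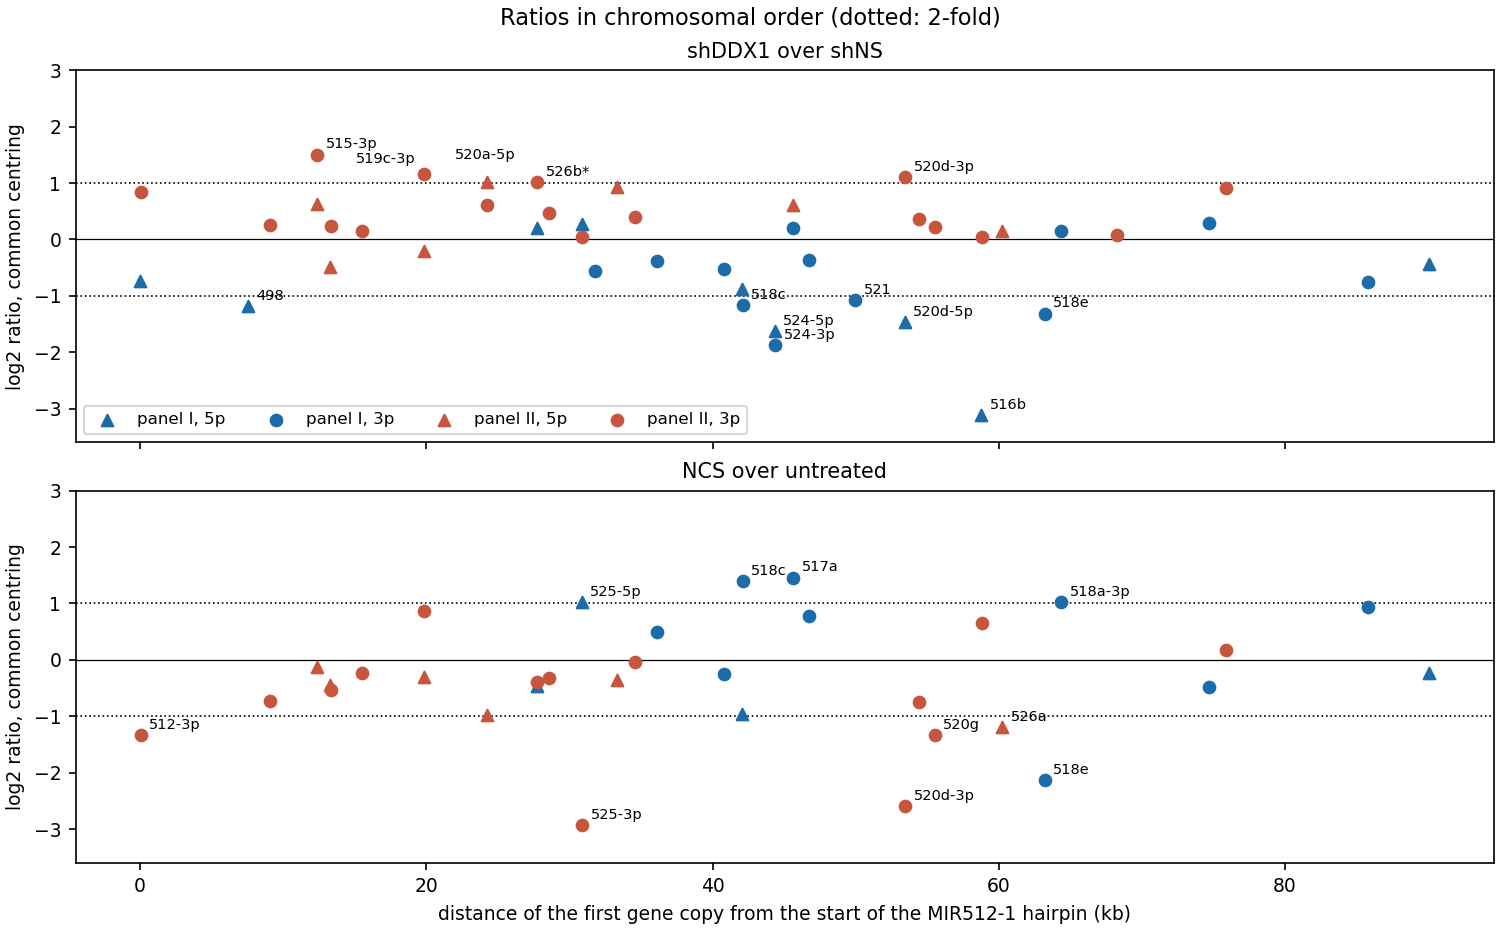
Log2 ratio of the sequenced members against the distance in kb of their first gene copy from the start of the MIR512-1 hairpin, for shDDX1 over shNS (top) and NCS over untreated (bottom), with colour for the panel and shape for the arm. Members below the lower dotted line (2-fold) in the top plot are all panel I assays, from miR-498 near the start to miR-518e at 63.2 kb.

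Neocarzinostatin was compared with no treatment over the 35 members quantified in both samples. At least 2-fold lower after the drug were 6 members (17.1%) and at least 2-fold higher 5 (14.3%), against 22.3% lower and 16.9% higher of all miRNAs quantified in both. The median log2 ratio of the members was -0.31, against -0.38 for all miRNAs. The split by panel ran opposite to that of the knockdown. On panel I, 5 of 14 members (35.7%) were higher and 1 lower, against 30.4% higher and 4.74% lower of all panel I miRNAs, and the median was 0.64 against 0.26 for the other wells. On panel II, 5 of 21 (23.8%) were lower and 0 higher, against 39.9% lower and 3.23% higher, with a median of -0.44 against -0.90. The calibrator wells of the panel I plates were read at 21.5 in the untreated sample and 20.7 in the NCS sample, and those of panel II at 18.1 in both.

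Lower after NCS were 5 of the 25 3p arms with a ratio and 1 of the 10 5p arms, against 22.3% of all miRNAs. On panel II they were 4 of 15 3p arms and 1 of 6 5p arms, against 39.9% of all panel II miRNAs. On panel I they were 1 of 10 and 0 of 4, against 4.74% of all panel I miRNAs. miR-525-3p was read at 31.6 in the untreated sample and 33.8 in the NCS sample, a log2 ratio of -2.93. miR-520d-3p was read at 31.6 and 33.5, a log2 ratio of -2.59. miR-518e, the 1 lower member on panel I, was read at 32.3 and 33.7, a log2 ratio of -2.14.
These 3 were more than 4-fold lower, while the remaining 3 were closer to the threshold. miR-512-3p had a log2 ratio of -1.34, miR-520g one of -1.33 and miR-526a, a 5p arm, one of -1.20.

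The 5 higher members were all panel I assays. miR-517a was read at 34.5 in the untreated sample and 32.3 in the NCS sample, a log2 ratio of 1.46. miR-518c was read at 32.7 and 30.6 (log2 ratio 1.39), and miR-518f at 31.997 and 29.975 (log2 ratio 1.29). miR-525-5p and miR-518a-3p were each at 1.03. Each of the 5 sat in the middle columns of its plate, where 5 of 7 members and 54.7% of the other panel I wells were higher, against 0 of 7 members and 10.5% of the other wells in the outer columns.

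Assays printed on both panels differed more between their wells in this pair. The SD of the log2 ratio within these 7 assays was 0.79, which includes any shift between the panels. The mean Ct used to centre panel I separately was 29.4 in the untreated and 27.9 in the NCS sample. For panel II it was 30.8 and 30.9. How much of the SD was error of single wells was not tested. The untreated Ct of the 5 higher members lay between 31.997 and 34.5. With each panel centred on its own mean, 3 of the 6 lower members stayed lower, miR-518e at -2.94, miR-525-3p at -2.10 and miR-520d-3p at -1.77, and 0 of the 5 higher members stayed higher. That centring gave 8 lower and 3 higher members in all, the latter miR-519c-3p at 1.69, miR-516b* at 1.48 and miR-520h at 1.002, and a median of 0.22, against 20.5% lower and 13.7% higher of all miRNAs. The same 3 lower members remained when neighbouring wells were subtracted, miR-518e at -4.86, miR-525-3p at -1.93 and miR-520d-3p at -1.05. That step gave 4 lower and 3 higher members in all, against 12.7% and 16.7% of all miRNAs.

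The balance of lower and higher calls depended on the scaling, in the members and in the panels as a whole. Of the members past 2-fold in the knockdown comparison, 61.5% were lower with mean centring, against 61.1% of all miRNAs past 2-fold. The share was 72.7% against 67.5% with median centring, 91.7% against 80.7% without centring, 92.3% against 86.8% with the reference miRNAs and 100% against 91.5% with the small RNA wells. It was 100% against 72.6% with the calibrators and 80.0% against 66.7% with each panel centred separately. In the NCS comparison it was 54.5% against 56.9% with mean centring, 23.1% against 16.8% without centring, 23.1% against 13.7% with the small RNA wells and 38.5% against 38.9% with the reference miRNAs. It was 44.4% against 29.8% with the calibrators and 72.7% against 60.0% with separate panels. These shares rest on 13 members or fewer under most scalings, and at most 17. The small RNA wells moved the median of all miRNAs by -0.67 in the knockdown comparison and by 0.79 in the NCS comparison, and the members moved with it. The median of the members minus the median of all miRNAs was 0.11 in the knockdown comparison under mean centring and -0.14 with separate panels, and 0.07 and 0.42 in the NCS comparison. Each of the 13 members past 2-fold in the knockdown comparison, and each of the 11 in the NCS comparison, kept its sign under all 7 scalings by sample or plate, although miR-521 in shDDX1 came to 0.01 when neighbouring wells were subtracted.

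Of the 35 members with a ratio in both comparisons, miR-518e was at least 2-fold lower in both, and 0 were higher in both. Among the 464 other wells with a ratio in both, 1.51% were lower in both and 0.216% higher in both. The Ct of miR-518e was 27.95 in shNS, 29.6 in shDDX1, 32.3 in the untreated sample and 33.7 in the NCS sample. miR-518c was lower in shDDX1 and higher after NCS, and miR-520d-3p was higher in shDDX1 and lower after NCS, as were 6.90% and 4.31% of the other wells. The 3 calls in shDDX1 were lost with separate panels, where miR-518e was at -0.89, miR-518c at -0.75 and miR-520d-3p at 0.68, and with neighbouring wells subtracted, where they were at -0.28, -0.38 and 0.46. The 2 comparisons share no sample.

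Groups of members with the same seed were described by their medians and ranges. The medians of all miRNAs were 0.04 in the knockdown comparison and -0.38 in the NCS comparison. The AAGUGCU group had a median log2 ratio of 0.41 in the knockdown comparison, from -0.52 to 1.11. Over its 4 members with a ratio in the NCS comparison the median was -0.49, from -2.59 to -0.03. The AAGUGCA group was at 0.46 (-0.75 to 1.17) and 0.87 (-0.31 to 0.94). The AAAGCGC group was at -0.16 (-1.17 to 0.15) and, over 3 members, 1.03 (0.50 to 1.39). UCGUGCA was at 0.29 (0.21 to 0.36) and -0.49 (-0.74 to 1.46), and UCUAGAG at 0.15 (-0.20 to 0.92) and -0.35 (-1.20 to -0.30).
The groups are not evenly divided between panels. On panel I were 3 of the 4 AAAGCGC assays, and on panel II 4 of the 5 AAGUGCU assays and all UCUAGAG assays. Over the 15 AAGUGC members, 0 were lower and 3 higher in shDDX1, against 8 lower and 2 higher of the 30 sequenced members without the core. Of all miRNAs, 17.3% were lower and 11% higher. On panel I, 0 of 3 AAGUGC members and 8 of 18 without the core were lower, against 29% of all panel I miRNAs. On panel II, 3 of 12 and 2 of 12 were higher, against 19.8% of all panel II miRNAs. Core and panel were not separated further. On panel I alone, the 3 AAGUGC members had a median of -0.52, and the 18 without the core one of -0.80. On panel II the medians were 0.53 and 0.26.

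Both arms were on the panels for 12 hairpins, 6 of them with both arms on 1 panel. The 5p arm was read earlier in 8 of 12 hairpins in shNS, 7 of 12 in shDDX1, 5 of 8 in the untreated sample and 5 of 11 in the NCS sample, over hairpins with a Ct for both arms. In 4 more hairpins of the untreated sample, miR-512, miR-516b, miR-520d and miR-524, the 5p arm was undetermined and the 3p arm had a Ct, so the 5p arm was the earlier one in 5 of 12 there. In the NCS sample the 3p arm of miR-524 alone was undetermined. The difference, 5p minus 3p, ran from -3.79 to 1.64 cycles in shNS, from -2.37 to 2.19 in shDDX1, from -5.19 to 2.59 in the untreated sample and from -4.07 to 2.896 in the NCS sample. Neither arm was the earlier one throughout. Because the arms are read by different primers, a difference in cycles is not a difference in amount, and the order within a hairpin is followed across samples instead.

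miR-515, miR-519c and miR-520a had both arms on panel II and the 5p arm earlier in every sample. For miR-515 the Ct of the 5p arm minus that of the 3p arm was -3.07 in shNS, -2.18 in shDDX1, -5.19 in the untreated sample and -3.996 in the NCS sample. For miR-519c it was -1.94, -0.57, -2.30 and -1.13, and for miR-520a -1.35, -1.76, -2.74 and -4.07.
These orders held on plates read several cycles apart. miR-512 had -2.63 cycles in shNS, -1.06 in shDDX1 and -0.48 in the NCS sample, and miR-524 had -2.12 in shNS and -2.37 in shDDX1. In the untreated sample the order of both was the opposite, since their 5p arms were undetermined while miR-512-3p was read at 32.03 and miR-524-3p at 34.7. miR-526b had the 3p arm earlier in every sample, with a difference of 1.39, 2.19, 2.04 and 2.13 cycles. For miR-519e the difference was -0.34 in shNS, 0.37 in shDDX1, 2.21 in the untreated sample and 2.11 in the NCS sample.

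Some hairpins had arms with unequal ratios. For miR-518c, with both arms on panel I, the difference was 0.27 cycles in shNS, -0.02 in shDDX1 and -0.30 in the untreated sample, and the 5p arm was 2.05 cycles later in the NCS sample. Its log2 ratios after NCS were -0.95 for the 5p arm and 1.39 for the 3p arm, a difference of -2.35, or -1.24 with neighbouring wells subtracted. For miR-525, with arms on different panels, the ratios after NCS were 1.03 for the 5p arm and -2.93 for the 3p arm, a difference of 3.96, or 2.33 with separate panels and 2.70 with neighbouring wells subtracted.
In the knockdown comparison the widest differences were those of miR-516b and miR-520d, both with arms on different panels. The difference for miR-516b was -3.16, or -2.30 with separate panels and -0.99 with neighbouring wells subtracted. For miR-520d it was -2.57, or -1.71 and -1.32. In these 2 the log2 ratio of shDDX1 over shNS was lower for the 5p arm than for the 3p arm. miR-524 had arms within 0.24 of each other in log2 ratio, and miR-519c, on panel II, had -0.20 for the 5p arm and 1.17 for the 3p arm. miR-518f had 0.92 for its 5p and 0.25 for its 3p arm in the knockdown comparison, and -0.35 and 1.29 after NCS, the latter a difference of -1.64, or -0.01 with separate panels.

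**Figure D4:**
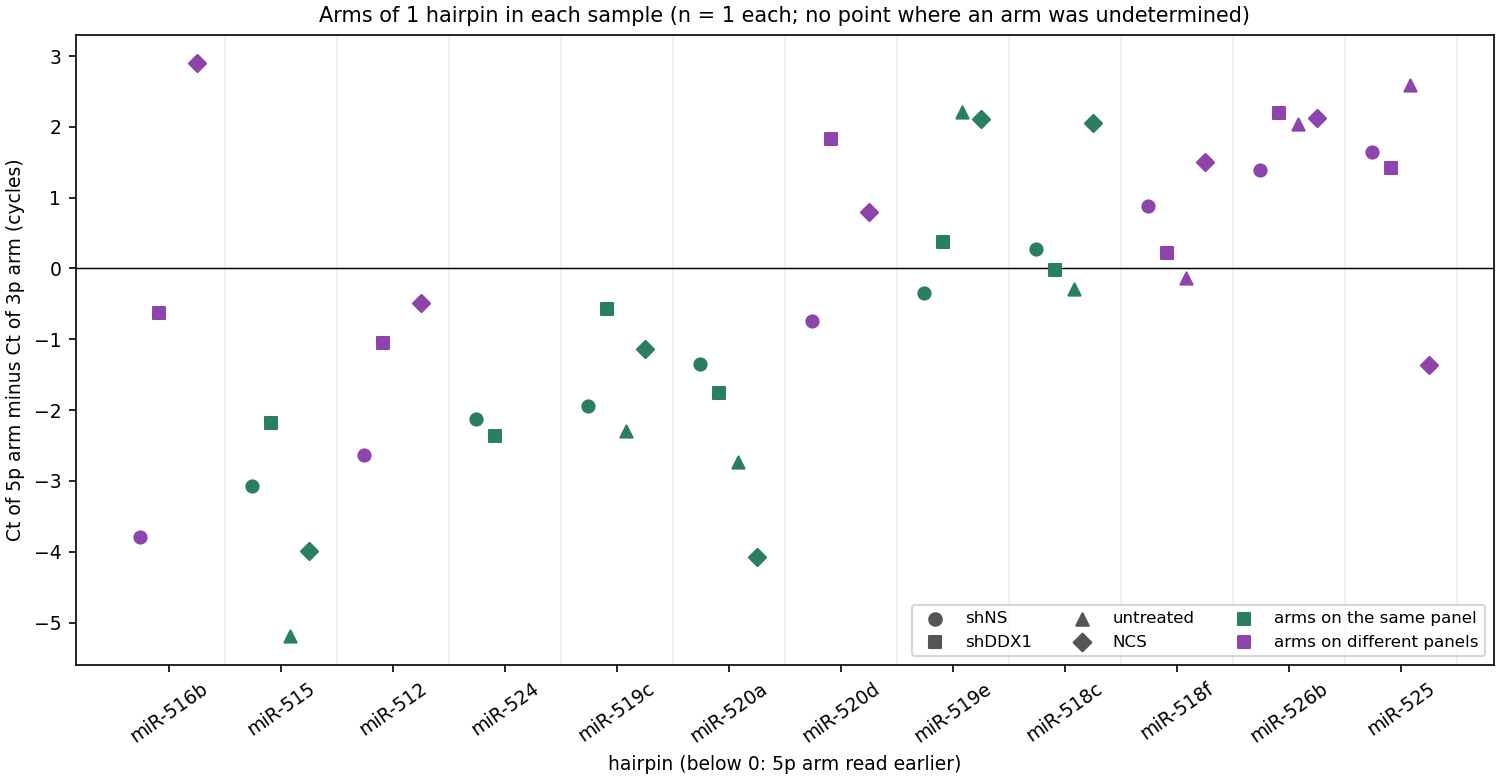
Ct of the 5p arm minus Ct of the 3p arm, in cycles, for the 12 hairpins with both arms on the panels, with a marker shape for each sample and colour for whether the arms share a panel. Points below 0 mean that the 5p arm was read earlier, as for miR-515, miR-519c and miR-520a in all 4 samples, while miR-526b stays above 0.

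Nearly identical members were compared across and within panels. Of the pairs within 2 edits of each other (a changed, added or missing base), 10 lay across the panels and 11 on the same panel. miR-517a on panel I and miR-517b on panel II, with the same RefSeq sequence, had log2 ratios of 0.21 and 0.36 in the knockdown comparison and of 1.46 and -0.74 after NCS. The last 2 values differ by 2.198, more than a 4-fold change, for what RefSeq lists as the same molecule, and by 0.57 with separate panels. In the knockdown comparison miR-517a minus miR-517b was -0.16, and with separate panels it was wider, at 0.70.
Across panels, the panel I assay minus the panel II assay had a median of -0.75 in the knockdown comparison, below 0 in 9 of 10 pairs, and of 0.10 with separate panels. After NCS the median was 0.36, or -1.27 with separate panels. On the same panel, the size of the difference had a median of 0.61 and a maximum of 1.12 in the knockdown comparison, and of 0.90 and 1.94 after NCS. Differences near 2-fold thus occurred between nearly identical members that shared a plate, and the pairs share assays, so they are not independent of each other. How far such assays read each other's miRNA was not tested.

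**Figure D5:**
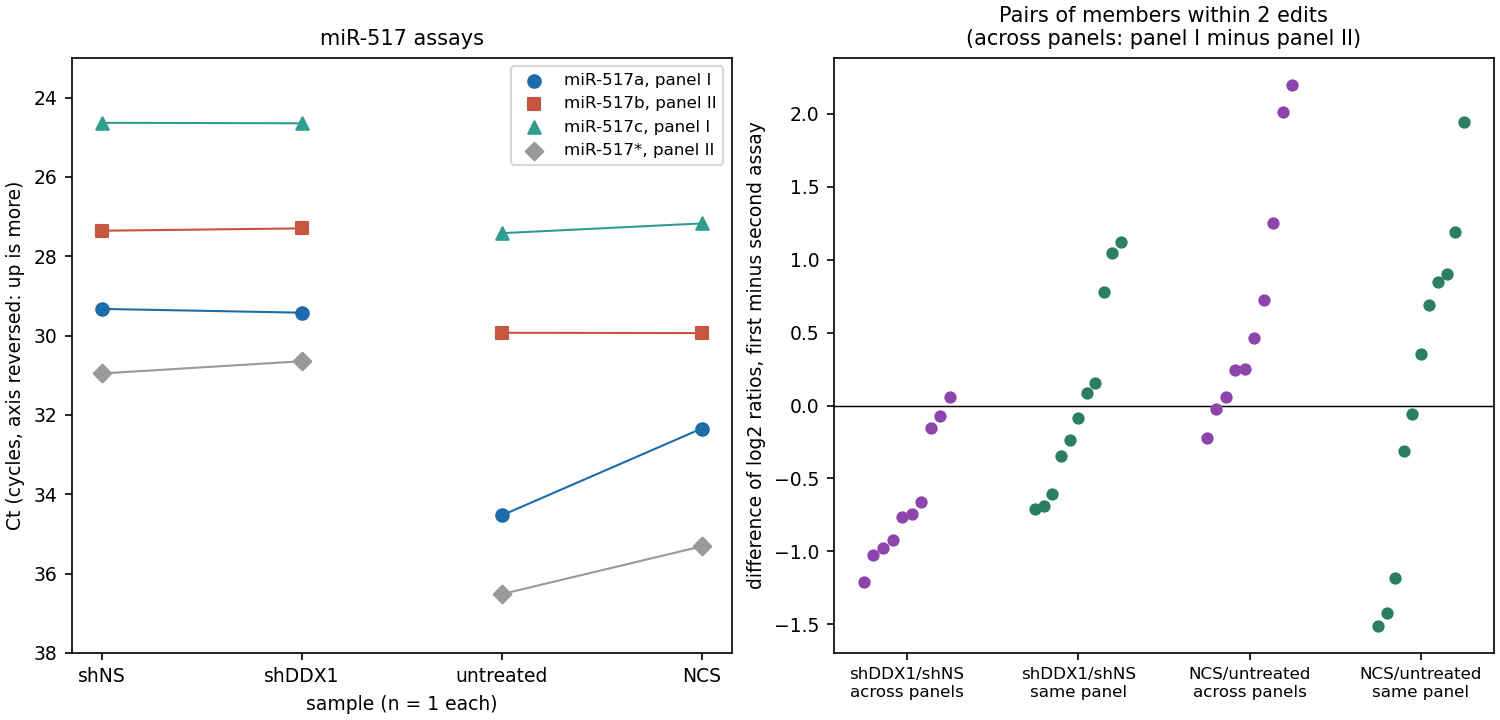
Left, Ct of the miR-517a, miR-517b and miR-517c assays, and of the 5p arm miR-517* on panel II, in each sample on a reversed axis in cycles. Right, difference of log2 ratios within pairs of members at most 2 edits apart, for pairs across panels and on 1 panel in both comparisons, where 9 of 10 pairs across panels lie below 0 in the knockdown comparison and miR-517a minus miR-517b reaches 2.198 after NCS.

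Relatives outside the cluster were read alongside. The neighbouring miR-371 to miR-373 cluster on chromosome 19 had 5 assays, all on panel I, of which 4 were quantified in shNS, 5 in shDDX1, 3 in the untreated sample and 4 in the NCS sample. Over the 4 with a ratio in the knockdown comparison the median was -0.05, and 1 was lower, miR-371-5p at -2.65, from 28.2 in shNS and 31.2 in shDDX1. Its other arm, miR-371-3p, had no ratio because it was read at 37.9 in shNS, and it was read at 28.3 in shDDX1, a move in the opposite direction. Over 3 after NCS the median was -0.86, and 1 was lower, miR-372 at -1.77. Of all panel I miRNAs, 29% were lower in the knockdown comparison and 4.74% after NCS.
The 13 AAGUGC miRNAs outside the chromosome 19 placental cluster, of the miR-302, miR-372, miR-373 and miR-17 families, were quantified in 13, 13, 7 and 10 cases in shNS, shDDX1, untreated and NCS. Their median log2 ratio was 0.05 in the knockdown comparison, with 1 lower, miR-302c at -2.16, and 0 higher. Of all panel I miRNAs, 29% were lower and 2.73% higher there. After NCS the median was 0.08 over 7, with 1 lower and 3 higher, of which miR-17 stood at 1.47, miR-20a at 1.37 and miR-106b at 1.07. These 7 were all on panel I, where 4.74% of all miRNAs were lower and 30.4% higher after NCS. Of these 13 assays, 12 were on panel I, whereas 12 of the 15 AAGUGC members inside the cluster were on panel II, so their medians were not set against each other. The 3 AAGUGC members on panel I had medians of -0.52 in the knockdown comparison and 0.77 after NCS.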

How the data were processed

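Total RNA from 4 U2OS samples was reverse transcribed and read by SYBR Green qPCR on a pair of 384-well miRNA panels, per the labels' protocols. The Ct table deposited by the authors holds each well's quantification cycle, a score with no fixed range, not normalized. The shifted Ct table deposited by the authors is a score of the same kind after a shift, and another deposited table gives the fold, a linear ratio, for both comparisons. The instrument, the threshold and the rule for undetermined wells are not given in the sources used here.

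Minus Ct was taken as a log2 level, assuming doubling per cycle. Each sample was centred on the mean Ct of the 499 miRNA wells (67.4%) under 35 in all samples, and a ratio used members under 35 in both samples, called at 2-fold. Mature sequences came from RefSeq. Arms of older names were matched by hand. In 53 of 53 RefSeq positions checked, the side of the hairpin was that of the matched name. This check compares RefSeq names with RefSeq positions and cannot test the matching by hand. Python 3.11.15, numpy 2.4.6, pandas 2.3.3 and matplotlib 3.10.9 were used, and the ratio calculation was tested on simulated data. With 1 sample a group no test was run. Ct carries no read depth, so precision is known only within samples, from the 7 assays on both panels and from the 3 calibrator wells of each plate, whose SD ran from 0.0329 to 0.347 cycles. The spread of the 7 assays also includes any shift between the panels.

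Named with values were the 5 earliest members of each sample, the 5 lowest and 5 highest ratios of each comparison, members quantified in 1 sample of a pair and far from it in the other, hairpins with both arms, and seed groups of 3 or more. The members, the miR-371 to miR-373 list and the AAGUGC list outside the cluster were fixed by name, with earlier results of these data known. Alternatives covered the scaling, the Ct limit, the fold, the water wells and the assay names.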

Additional observations from a re-analysis of the deposited data

How the results depend on the processing

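With 1 sample a group, no value here has a replicate check, and a change of scaling moves all members of a sample or panel together. Members quantified numbered 20 in the untreated and 22 in the NCS sample at Ct under 32. Members earlier than water came to 9 in shNS and 5 in shDDX1 against the earliest water well of either panel, and to 48 in both against the median water well. Lower members in shDDX1 were 8 in the main setting. The count was 17 with small RNA wells (35.9% of all miRNAs), 4 with panels centred separately (15.6%) and 5 with calibrators (16.6%). It was 4 with neighbouring wells subtracted (12.8%) and 1 at 4-fold. Higher members in shDDX1 were 5 in the main setting. The count was 3 with median centring (9.36% of all miRNAs), and 0 with small RNA wells (3.35%) or calibrators (6.28%). It was 0 at 4-fold and 11 at 1.5-fold. With reference miRNAs (4.47%), no centring (5.87%), separate panels (7.82%) or neighbouring wells (7.96%) it was 1. The authors' deposited tables also gave 1 (5.84%). Of the 8 members earlier than water in both samples, 2 passed 2-fold downwards and 1 upwards, and their median was -0.63. On panel I lay 7 of these 8, and the median of all panel I members was -0.65 without this limit. The same counts over the other miRNA wells were not made. The median of 0.15 became -0.52 with small RNA wells and -0.32 with reference miRNAs. Lower members after NCS were 6 in the main setting. The count was 3 with small RNA wells (5.02% of all miRNAs), no centring (5.82%) or the authors' deposited tables (6.39%). It was 3 at 4-fold, 10 at 1.5-fold and 1 of 17 at Ct under 32. Higher members after NCS were 5 in the main setting. The count was 10 with small RNA wells (31.7% of all miRNAs) or no centring (28.9%), and 8 with reference miRNAs (21.5%). It was 12 in the authors' deposited tables (31.3%). With separate panels (13.7%) or neighbouring wells (16.7%) it was 3, with 0 of the 5 among them. At 1.5-fold it was 9, at 4-fold 0 and at Ct under 32 it was 1. Shares of all miRNAs at other folds or Ct limits were not counted. The median of -0.31 became 0.51 in the authors' deposited tables. miR-521 in shDDX1 went from -1.07 to 0.010 with neighbouring wells subtracted. The share of members read no earlier than the earliest water well of their panel, a limit set by 1 well on each panel, limits the knockdown comparison. Where a value moved with the scaling, the cause was not tested. No water limit could be applied to the untreated and NCS samples, where no water well had a Ct. No paired analysis was possible because no group holds more than 1 sample.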

Other observations

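The authors' deposited table of shifted Ct values changed the members by panel. In shNS and shDDX1 the shift in the authors' deposited table was -0.789 cycles for panel I members and 0.789 for panel II members. In the NCS pair the shift in the authors' deposited table varied between members, from -5.96 to -3.32 cycles on panel I and from -4.18 to -0.117 on panel II in the untreated sample, and from -9.23 to -3.19 and from -3.80 to 0.0837 in the NCS sample. The authors' deposited table gave a number for 4 members whose untreated well was undetermined and for 2 whose NCS well was. One of them, miR-498, undetermined in the untreated sample and at a Ct of 34.2 in the NCS sample, has a fold of 41.6 for NCS over untreated in the authors' deposited table. For miR-520d-5p, also undetermined in the untreated sample, that fold is 26.8 in the authors' deposited table, and for miR-523, undetermined in both samples, it is 0.0236. The way these numbers were filled in is not given in the sources used here, and none of them entered the counts above.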
